A study of Mus musculus with 8 samples.

Results

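The genes described here encode the proteins of the cytosolic ribosome. They were taken by symbol and gene type: protein-coding genes named Rpl or Rps with a number and at most a short suffix, together with Rplp0, Rplp1, Rplp2 and Rpsa. This gave 81 genes of the 24451 in the deposited table, of which 80 had a mean of at least 5 normalized counts over the 8 livers and were tested. The remaining gene, Rpl3l, had a mean of 3.01. A normalized count is the number of reads on a gene divided by a DESeq2 size factor of its liver.

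Single-end reads came from bulk RNA of 8 livers, 4 of them Brap LKO and 4 Brap F/F. Both groups were C57BL/6J mice (C57BL/6 in the labels), 18 wk old and fasted for 6 h, and both carried Brap alleles with loxP sites around exons 2 and 3. Brap LKO mice also carried Cre under the albumin promoter, so cells in which that promoter was never active keep the gene. Brap F/F mice had no Cre and are called wild type in the labels. Animal numbers in the labels fall in a lower and a higher series, and 3 of 4 Brap LKO but 1 of 4 Brap F/F mice were of the lower one. Genes received 26280884 to 33313914 reads in a liver.

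A ribosome is built of a small (40S) and a large (60S) subunit. Each is made of ribosomal RNA and a set of proteins, most of them needed in equal numbers. Ribosomal protein mRNAs are short and abundant in most tissues, and their translation is controlled together through a pyrimidine tract at the 5′ end that responds to mTOR signaling and LARP1. The genes have left many processed pseudogenes in mammalian genomes, whose sequence can match that of the parent mRNA over long stretches.

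Brap itself had 4042, 4203, 4065 and 3641 normalized counts in Brap LKO livers and 4410, 4235, 3994 and 4106 in Brap F/F livers. The groups overlapped, and the log2 fold change (Brap LKO minus Brap F/F, on log2 of the normalized count plus 1) was -0.07 ± 0.07 (SE, n = 4 and 4, exact permutation p = 0.286). Exons 2 and 3 make up 358 of 3744 bases (9.56%) of the main Brap transcript, so a count over the whole gene does not check the genotype labels. The tissue was liver by its markers, with Alb at 1438250 to 2146520 normalized counts in Brap LKO and 1933910 to 3058030 in Brap F/F livers.

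Sequence near the annotated start was looked at first, because the pyrimidine tract is a shared feature that the choice of genes did not use. RefSeq promoters (GRCm38) were found for 61 of the 81 genes. A run of at least 8 C or T on the sense strand, within 30 bases centred on the start, was present for 27 of them (44.3%), and for 14.9% of the 10534 other tested protein-coding genes with a promoter. Counted by promoter, where a gene can have several, the share was 38.4% of 73 promoters of these genes and 12.003% of all 32851. Runs were counted anywhere in the window, so a run can lie before the annotated start, as that of Rpl4 below does. The shares are therefore not shares of mRNAs that begin with the tract, and a short run does not show that the tract is absent. The windows below run 5′ to 3′, and capitals mark the longest run of C and T. The first 4 genes have long runs, Rps6 and Rpl4 shorter ones, and Rplp0 and Rpsa have runs of 5. They lie at chr2:26910792-26910821 (plus strand), chr7:109519180-109519209 (plus), chr2:39005117-39005146 (minus), chr14:18270972-18271001 (minus), chr4:86857353-86857382 (minus), chr9:64173372-64173401 (plus), chr5:115559452-115559481 (plus) and chr9:120127751-120127780 (plus).
Rpl7a: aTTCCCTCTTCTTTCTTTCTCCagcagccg
Rpl27a: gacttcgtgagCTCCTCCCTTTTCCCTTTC
Rpl35: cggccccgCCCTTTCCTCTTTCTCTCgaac
Rpl15: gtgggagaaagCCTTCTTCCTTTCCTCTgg
Rps6: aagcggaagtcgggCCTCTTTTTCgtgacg
Rpl4: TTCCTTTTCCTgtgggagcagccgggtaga
Rplp0: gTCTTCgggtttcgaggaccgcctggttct
Rpsa: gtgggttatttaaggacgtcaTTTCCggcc

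Levels of the ribosomal protein genes differed widely from one another. Per kb of transcript, the 80 tested genes spanned a 366-fold range of mean normalized counts, although most of their proteins are parts of 1 particle. Under 100 per kb there were 14 genes, 41 lay from 100 to 1000, and 25 were at 1000 or more. Per kb of coding sequence, a length chosen after seeing the data, the range was 1056-fold, the bands held 6, 40 and 34 genes and Rpl41, a protein of the 60S subunit, was the highest. Per kb of transcript the 3 highest were Rpl8 (7309 per kb), Rpl4 (6940) and Rps9 (5808), and the 5 lowest were Rpl24 (19.9), Rpsa (21.5), Rpl19 (29.3), Rps23 (34.2) and Rpl23a (34.9). Median levels were 525 per kb for 32 genes of the 40S subunit and 406 per kb for 48 of the 60S subunit. Of the summed normalized counts of the 81 genes, 36.8% lay on 5 genes.

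The ends of this order can be followed in single livers. Rpl8, a 60S protein near the peptidyl transferase center, had 7087, 7273, 7270 and 6846 normalized counts per kb in the Brap LKO livers and 6633, 7933, 7622 and 7805 in the Brap F/F livers. Rpl24, a 60S protein at the subunit interface, had 16.1, 20.1, 14.9 and 16.9 against 25.3, 22.5, 24.8 and 18.8. Rps6, the 40S protein phosphorylated by S6 kinase, had 36.3, 39.7, 36.9 and 35.5 against 37.7, 35.9, 22.7 and 50.3. The lowest liver for Rpl8 was thus far above the highest liver for Rpl24 or Rps6, and in each of these genes the groups overlapped.

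**Figure D1:**
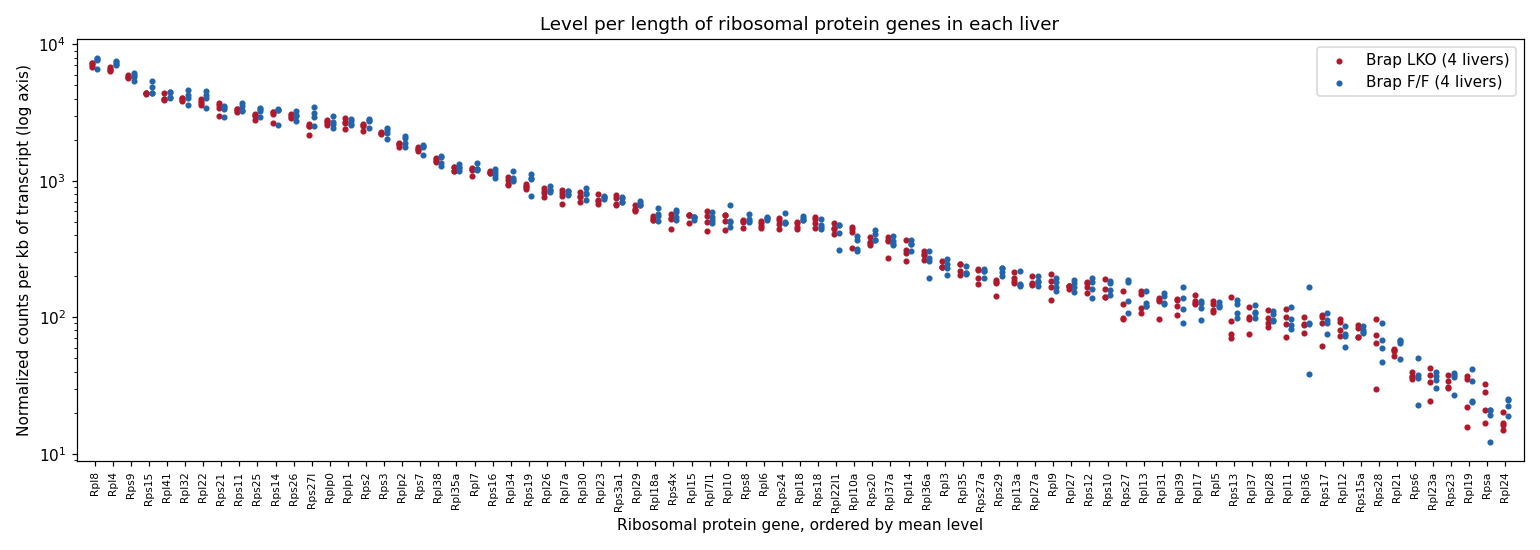
Normalized counts per kb of transcript (log axis) of tested ribosomal protein genes, ordered by mean; each point is 1 liver, red for Brap LKO and blue for Brap F/F. The genes span a 366-fold range, and the livers of a gene lie close together by comparison.

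The level of a gene went along with how much of its sequence is its own. Each coding sequence was divided into all windows of 50 bases, the read length, and a window was called unique if no transcript of another annotated gene (GENCODE, GRCm38) held it on either strand. The median share of unique windows was 8.57% in the tested ribosomal protein genes and 100% in 13250 other tested protein-coding genes. Under 50% of windows were unique in 68 of the 80 genes (85.0%), against 6.17% of the other genes. In all, 1153 other genes shared a window with a ribosomal protein gene, and 1096 of these are annotated as pseudogenes.

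Among the 44 genes with under 10% unique windows the median level was 172 normalized counts per kb, and it was 548 among the 15 genes with 10 to 20%. It was 1556 for 8 genes with 20 to 40%, 3369 for 6 with 40 to 60% and 3984 for 4 with 60 to 80%. Genes above 80% did not all lie higher: Rpl8 had 91.3% unique windows and 7309 per kb, and Rps3 had 91.9% and 2252. The upper bands hold few genes. Across the 80 genes, which are not independent replicates, Spearman's rho was 0.72, and it is given as a description (0.77 per coding length). Exceptions stood at both ends: Rpl41 had no unique window and 4174 per kb, Rps25 had 1.84% unique windows and 3108 per kb, and Rpl7l1 had 78.1% unique windows and 527 per kb. Rpl41 and Rps25 were named after their values were seen. The coding sequence of Rpl41 is 75 of 544 transcript bases, so its unique share covers a small part of the length over which its level was counted. The transcript of Rpl7l1 is long (2606 bases), and per kb of coding sequence it had 1861.

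**Figure D2:**
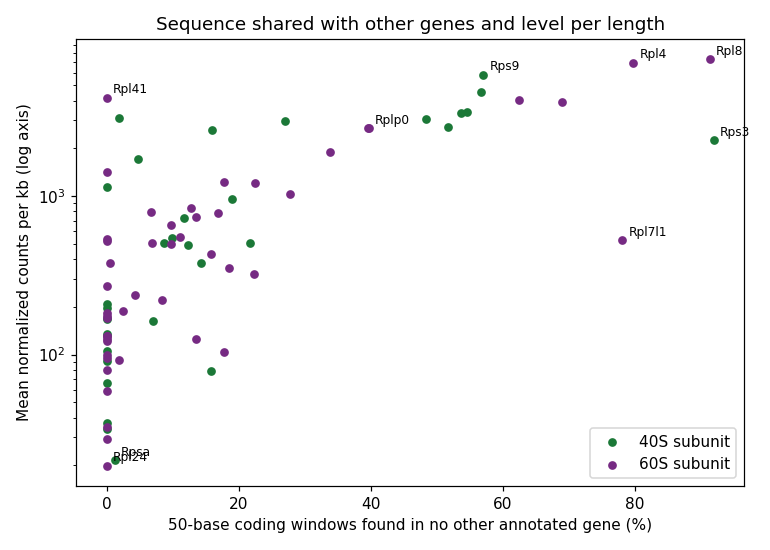
Share of 50-base coding windows found in no other annotated gene (x axis, %) against mean normalized counts per kb (y axis, log) for tested ribosomal protein genes; each point is 1 gene, colored by subunit. Most genes with a larger unique share had higher levels, with Rpl41, Rps25 and Rpl7l1 among the exceptions.

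How widely sequence is shared can be seen in single stretches of 50 coding bases, each lying within 1 exon and printed 5′ to 3′ on the sense strand. The stretch of Rpl4 (chr9:64174865-64174914, plus strand) is in 1 other annotated gene. That of Rps6 (chr4:86854774-86854823, minus) is in 9 other genes, that of Rpl19 (chr11:98029430-98029479, plus) in 11, that of Rpl23a (chr11:78181504-78181553, minus) in 18 and that of Rpl7a (chr2:26912379-26912428, plus) in 45. The mean levels of these 5 genes were 6940, 36.9, 29.3, 34.9 and 799 normalized counts per kb in the same order, so the most widely shared stretch did not belong to the lowest gene. No part is singled out in capitals.
Rpl4: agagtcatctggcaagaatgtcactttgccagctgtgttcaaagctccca
Rps6: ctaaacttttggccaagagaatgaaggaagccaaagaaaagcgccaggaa
Rpl19: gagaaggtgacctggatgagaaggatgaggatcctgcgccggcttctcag
Rpl23a: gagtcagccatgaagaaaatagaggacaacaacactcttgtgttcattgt
Rpl7a: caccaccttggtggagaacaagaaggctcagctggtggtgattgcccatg

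The pseudogenes held few reads by comparison. Of the 1096 pseudogenes, 621 have an entry in the table, and together these held 787 to 887 normalized counts in Brap LKO livers and 844 to 911 in Brap F/F livers. The 81 ribosomal protein genes together held 76219 or more in every Brap LKO liver. How reads that match several places were counted is not given in the sources used here, and its part in the levels was not tested. The level of a gene with few unique windows is therefore uncertain, and comparisons between genes are less firm than comparisons of 1 gene between livers.

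Between the groups, limma called 0 of the 80 tested ribosomal protein genes higher in Brap LKO livers and 0 lower at a Benjamini-Hochberg adjusted p under 0.05. Over all 15352 tested genes it called 102 higher (0.664%) and 16 lower (0.104%). The lowest Benjamini-Hochberg adjusted p of a ribosomal protein gene was 0.220 with limma (Rps27l). At an unadjusted p under 0.05 there were 5 of 80 (6.25%), against 15.8% of all tested genes. When the animal series was added to the model there were 0 of 80, against 12.7% of all tested genes, and limma then called 132 of all genes higher (0.86%) and 13 lower (0.0847%), 0 of them ribosomal protein genes. On the recovered reads, edgeR called 0 ribosomal protein genes in either direction, with 2 at an unadjusted p under 0.05 (against 15.6% of all genes), where it called 108 of all genes higher (0.703%) and 14 lower (0.0912%). DESeq2 also called 0, with 3 at an unadjusted p under 0.05 (against 10.5% of all genes with a p), where it called 448 of all genes higher (2.73%) and 159 lower (0.97%). The count over all genes thus depended on the tool, and it also depended on single livers: leaving out 1 liver gave limma 11 to 178 higher and 4 to 54 lower, with 0 ribosomal protein genes each time.

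The fold changes of the ribosomal protein genes were small. Their median log2 fold change was -0.06, beside -0.01 for all tested genes, and 61 of 80 were below 0 (76.3%, against 52.0% of all tested genes). An absolute log2 fold change under 0.2 was found for 71 of 80, and for 59.8% of all tested genes. The 95% confidence interval lay within -0.5 to 0.5 for 64 of the 80 genes. Among the 24 genes with a mean of at least 1000 normalized counts, the median was -0.06, and it was -0.07 over all 4016 tested genes at that level. The direction of the median turned only with scaling to a total. With every liver brought to the same total, the median of all genes moved to 0.15 and that of the ribosomal protein genes to 0.10, with 71 of 80 above 0. The median of the ribosomal protein genes stayed below 0 with the TMM scaling factors of edgeR (-0.04, 58 of 80 below 0). With quantile normalization it was -0.06, with 56 of 80 below 0. Relative to the median of all genes the difference was -0.05 with either scaling. It was -0.02 without the second Brap F/F liver, -0.03 without the first Brap LKO liver and -0.02 with the animal series in the model. In the other direction, it was -0.07 without the first Brap F/F liver and -0.06 without the second or the third Brap LKO liver.

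**Figure D3:**
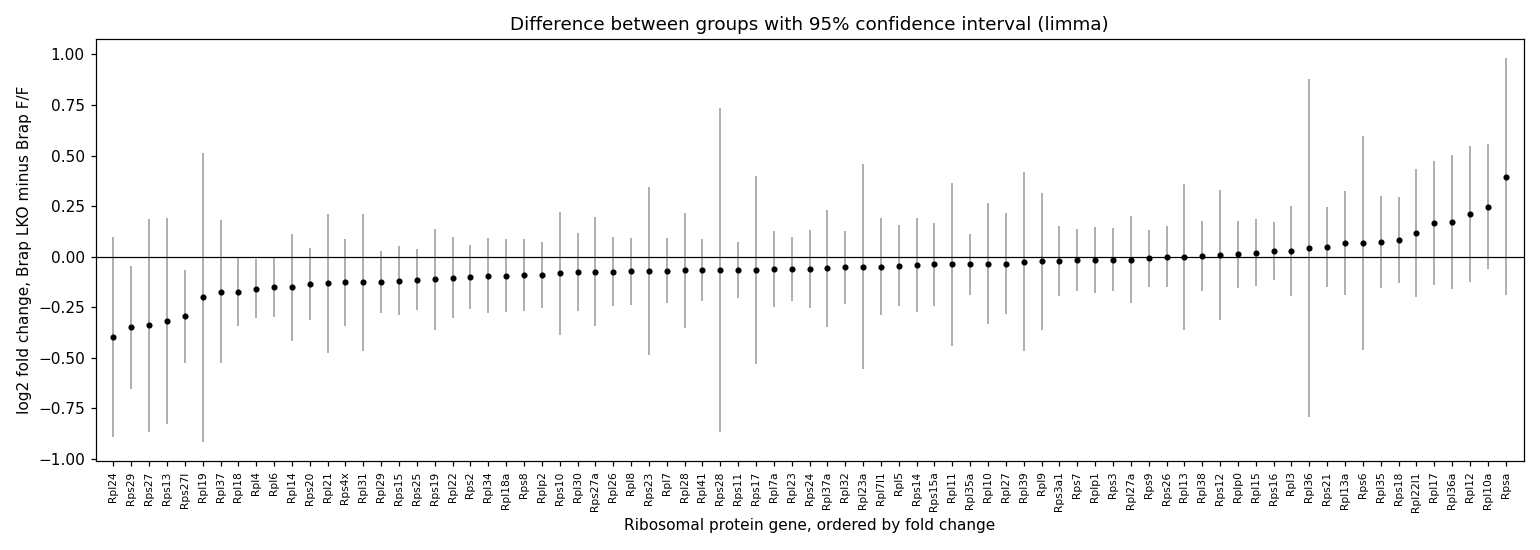
log2 fold change (Brap LKO minus Brap F/F, y axis) of tested ribosomal protein genes, each with its 95% confidence interval from limma; each point is 1 gene, ordered by fold change. Over all 80 tested genes, 61 were below 0 with the authors' size factors, whereas 71 were above it with the same total per liver.

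The summed level shows the same dependence liver by liver. The 81 genes together had 76219, 78536, 79427 and 77237 normalized counts in Brap LKO livers and 75709, 85990, 81170 and 83943 in Brap F/F livers. The lowest sum was in a Brap F/F liver and the other 3 Brap F/F livers were above all Brap LKO livers, so the groups overlapped. As a share of all normalized counts the genes took 0.278%, 0.278%, 0.274% and 0.278% in Brap LKO and 0.253%, 0.263%, 0.254% and 0.272% in Brap F/F livers. By this measure every Brap LKO liver was above every Brap F/F liver. Sums and shares are of counted reads and carry the uncertainty of genes with few unique windows.

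The totals behind these shares differed between the groups. All normalized counts summed to 27440741 to 28975099 in the Brap LKO livers and 29964617 to 32729998 in Brap F/F livers. The 50 most abundant genes took 32.1 to 33.8% in Brap LKO and 34.3 to 37.2% in Brap F/F livers. Outside those 50 genes, the ribosomal protein genes took 0.409%, 0.410%, 0.414% and 0.415% in Brap LKO and 0.385%, 0.419%, 0.394% and 0.424% in Brap F/F livers, and the groups overlapped with Brap F/F livers at both ends. The ratio of summed 60S to 40S genes was 1.17 ± 0.02 (SD, n = 4) in Brap LKO and 1.19 ± 0.04 (SD, n = 4) in Brap F/F livers, a difference smaller than the spread.

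**Figure D4:**
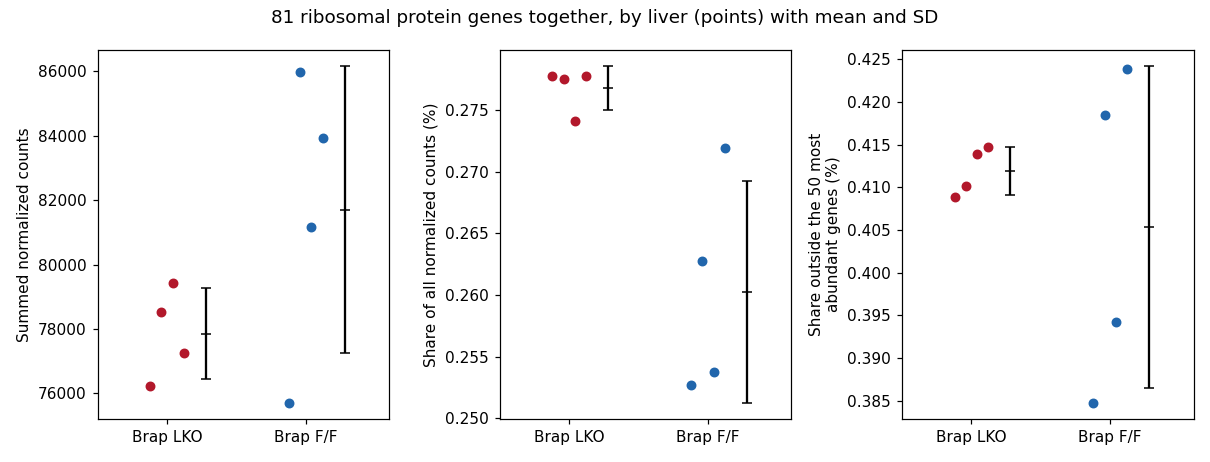
The 81 ribosomal protein genes together in each liver (points) with mean and SD (n = 4): summed normalized counts, share of all normalized counts (%) and share outside the 50 most abundant genes (%); the axes do not start at 0. Brap LKO livers overlap with Brap F/F livers in the first and last panels and lie above them in the second.

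Livers also held markers of other cell types at different levels, and in bulk tissue fewer cells of a type and less RNA per cell cannot be told apart. Of 8 tested cholangiocyte markers, limma called 2 (Cldn4 and Cftr) higher in Brap LKO livers, against 0.664% of all tested genes. An unadjusted p under 0.05 was found for 6 of 8, against 15.8% of all tested genes. The median log2 fold change was 0.95 (1.11 with the same total per liver). Of 10 stellate cell and fibroblast markers 1 (Pdgfrb) was called higher and 6 had an unadjusted p under 0.05, against the same shares of all tested genes. Their median was 0.71 (0.87 with the same total). Cldn4, a tight junction protein, had 10.9, 4.25, 9.11 and 21.8 normalized counts in Brap LKO and 0, 1.02, 1.05 and 0.981 in Brap F/F livers. Cftr, a chloride channel, had 16.4, 16.1, 6.07 and 17.7 against 0, 1.02, 2.10 and 0.981. The Brap F/F means of Cldn4 and Cftr were 0.76 and 1.03, so both passed the minimum mean of 5 only through the Brap LKO livers. No conclusion is drawn from their calls. Pdgfrb, a growth factor receptor, had 428, 358, 476 and 601 against 212, 223, 241 and 305, and in all 3 genes every Brap LKO liver was above every Brap F/F liver. None of 14 lymphocyte markers (median 0.62), 11 macrophage and monocyte markers (0.50) or 8 sinusoidal endothelial markers (0.16) was called in either direction. The same held for 10 hepatocyte markers (-0.18), 5 red blood cell markers (-0.06) and 8 proliferation markers (-0.20). At an unadjusted p under 0.05 there were 4, 3, 0, 1, 0 and 0 in this order, against 15.8% of all tested genes. With the same total per liver these medians were 0.78, 0.66, 0.32, -0.03, 0.10 and -0.04, so that of the red blood cell markers changed sign.

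The summed macrophage and monocyte markers were 11563, 9770, 6328 and 7923 normalized counts in Brap LKO and 6805, 6984, 6350 and 8857 in Brap F/F livers, with Clec4f the most abundant. The summed cholangiocyte markers were 2214, 2236, 1919 and 3778 against 1618, 1283, 1131 and 2128, with Spp1 the most abundant. The summed stellate cell and fibroblast markers were 10065, 7734, 12223 and 10320 against 5091, 8159, 8798 and 6505, with Dcn the most abundant. All 3 sums overlapped between the groups, and the part of these cells in the level of ribosomal protein genes was not tested.

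Of single ribosomal protein genes, Rplp0 was taken first because the study used it, as 36B4, to normalize its qPCR. It encodes the base of the ribosomal stalk, where elongation factors bind. Its normalized counts were 3503, 3594, 3764 and 3752 in the Brap LKO livers and 3544, 3655, 3288 and 4038 in Brap F/F livers. The Brap F/F livers held both the lowest and the highest value. The log2 fold change was 0.01 ± 0.07 (SE), with a 95% interval of -0.15 to 0.18 (limma adjusted p = 0.950, exact permutation p = 0.914), and scaling to equal totals gave 0.17. The other stalk proteins, Rplp1 and Rplp2, had log2 fold changes of -0.02 and -0.09, and these were 0.14 and 0.07 with the same total per liver.

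Among 14 other genes in common use as qPCR references, limma called 0 in either direction. An unadjusted p under 0.05 was found for 2 of 14, against 15.8% of all tested genes. B2m and Sdha, the 2 most abundant of the list, had log2 fold changes of 0.09 and -0.19, and their groups overlapped. The rule for naming genes, given under the processing, does not take Gapdh, Actb, Rpl13a or Rps18. These are to be read as named with their values known. Gapdh, a glycolytic enzyme, had 3112, 3164, 2830 and 2901 normalized counts in Brap LKO and 3596, 3538, 3436 and 4034 in Brap F/F livers. Every Brap LKO liver was below every Brap F/F liver (log2 fold change -0.28 ± 0.07 (SE), limma adjusted p = 0.111), and DESeq2 called Gapdh lower (Benjamini-Hochberg adjusted p = 0.0247). With the same total per liver the groups overlapped and the log2 fold change was -0.12 (limma adjusted p = 0.408). Actb, a cytoskeletal actin, ranged from 10104 to 17470 in Brap LKO and from 11104 to 24696 in Brap F/F livers, a wide spread within both groups. The ribosomal protein genes in use as references, Rpl13a and Rps18, had log2 fold changes of 0.07 and 0.08, and their groups overlapped.

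**Figure D5:**
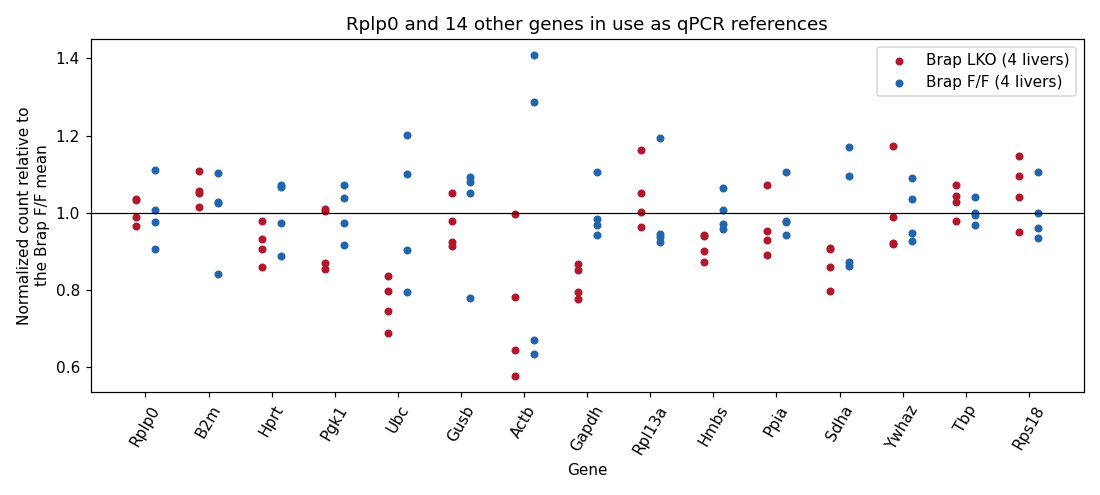
Normalized count of Rplp0 and 14 other genes in use as qPCR references, each divided by the mean of its 4 Brap F/F livers (y axis); each point is 1 liver, red for Brap LKO and blue for Brap F/F. Rplp0 livers of both groups surround 1, whereas all Gapdh points of Brap LKO lie below those of Brap F/F, a separation lost with the same total per liver.

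Rpl4, a 60S protein with a long extension into the particle, was the ribosomal protein gene with the most normalized counts. It had 9766, 9969, 10170 and 10455 in the Brap LKO livers and 10902, 11429, 11045 and 11654 in the Brap F/F livers. Every Brap LKO liver was below every Brap F/F liver. The log2 fold change was -0.16 ± 0.06 (SE), with a 95% interval of -0.30 to -0.01 (limma adjusted p = 0.285; DESeq2 adjusted p = 0.0781, the lowest of the family with that tool), and it was 0.00 when all livers were scaled to the same total. The exact permutation p was 0.0286, the smallest that 70 arrangements can give.

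Rps29, a small zinc-binding 40S protein, had 55.6, 70.5, 69.8 and 72.8 normalized counts in Brap LKO livers and 84.4, 89.5, 78.8 and 89.3 in Brap F/F livers. The groups did not overlap (log2 fold change -0.35 ± 0.13 (SE), limma adjusted p = 0.262). Of the 119 coding windows of Rps29, 0 were unique, so its level is uncertain. Without overlap, 5 of the 80 genes (6.25%) were lower in Brap LKO and 0 were higher, where 4.39% of all tested genes were lower and 5.48% higher. Besides Rpl4 and Rps29 these were Rpl6, Rpl18 and Rpl29, named after their values were seen. The direction of this count turned with the scaling: with the same total per liver, counted after seeing the data, all 5 overlapped, 0 genes were lower and 12 of 80 were higher without overlap, where 14.2% of all tested genes were higher and 0.658% lower. With that scaling 12 of 80 had an unadjusted p under 0.05, all higher, against 23.3% of all tested genes, and limma called 0 ribosomal protein genes higher and 0 lower, where it called 459 of all genes higher (2.99%) and 20 lower (0.13%).

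The paralogs of ribosomal proteins did not pass the threshold either. Rps27l, a p53-responsive paralog of Rps27, had 1250, 1256, 1306 and 1081 normalized counts in Brap LKO and 1268, 1722, 1573 and 1460 in Brap F/F livers. All but 1 of the Brap F/F livers were above all Brap LKO livers (log2 fold change -0.29 ± 0.10 (SE), limma adjusted p = 0.220). Its parent Rps27 had a log2 fold change of -0.34 with an interval of -0.87 to 0.19, at a mean of 46.8 normalized counts and 0% unique windows. Rpl22l1 and Rpl22 had log2 fold changes of 0.12 and -0.10, and Rpl7l1 and Rpl7 of -0.05 and -0.07. Rps4l, which is not annotated as protein-coding in the table, had a log2 fold change of 0.10, and Rps4x of -0.13. Rpl3 had 0.03, Rpl10 -0.04 and Rpl39 -0.02.

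Proteins with roles beyond the ribosome were also taken by name. Rpl5 and Rpl11, which bind MDM2 with 5S rRNA, had log2 fold changes of -0.04 and -0.04. Rps19, a gene mutated in Diamond-Blackfan anemia, had -0.11, Rps3 had -0.02 and Rps6 had 0.07. For the genes with few reads the error was wide: Rpsa, the laminin receptor, had the highest log2 fold change of the tested genes, 0.40 with an interval of -0.19 to 0.98, from 33.7, 45.0, 51.6 and 27.0 normalized counts in Brap LKO and 30.8, 33.6, 33.6 and 19.6 in Brap F/F livers. Rpl24 had the lowest, -0.40 with an interval of -0.89 to 0.10, and Rps13 had -0.32 with an interval of -0.83 to 0.19. Unique windows were 1.20% in Rpsa and 0% in Rpl24 and Rps13, so their levels are also uncertain for that reason. None of these genes passed the threshold, and their groups overlapped.

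The spread between livers of a group was small for abundant genes. The median coefficient of variation within groups was 6.16% for the 24 ribosomal protein genes with at least 1000 normalized counts and 9.11% for all 4016 genes at that level. It was 17.6% for the 20 tested ribosomal protein genes under 100 normalized counts. The median deviation of the ribosomal protein genes from their means over 8 livers was -0.05, 0.01, 0.00 and -0.06 on the log2 scale in Brap LKO and -0.05, 0.12, 0.00 and 0.06 in Brap F/F livers. The second Brap F/F liver was the highest, with 69 of 80 genes above their own mean.

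Of the other genes of ribosome synthesis and translation, 141 outside the 81 were tested and limma called 0 higher and 0 lower in Brap LKO livers, with 12 at an unadjusted p under 0.05 (against 15.8% of all tested genes). Their median log2 fold change was -0.06. Among ribosomal proteins that the choice by symbol left out, Fau, which encodes RPS30, had 249, 270, 242 and 237 normalized counts in Brap LKO and 310, 304, 274 and 346 in Brap F/F livers. The Fau groups did not overlap with the authors' size factors (log2 fold change -0.30 ± 0.10 (SE), limma adjusted p = 0.180) and overlapped with the same total per liver (-0.15), whereas Rack1, a scaffold protein on the 40S subunit, had a log2 fold change of -0.02.

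Translation factors lay mostly below 0 with the authors' size factors and mostly above 0 with the same total per liver. In the first case all 6 elongation factors did (median -0.10), among them Eef2 (-0.10) and Eef1a1 (-0.12), and 27 of 29 initiation factors did (median -0.09), among them Eif4g1 (-0.12) and Eif4g2 (-0.09). With the same total the medians were 0.06 and 0.07. Other mRNAs with a pyrimidine tract had a median of -0.09 over 7 genes (0.07 with the same total), with 3 above 0, Tpt1 at -0.12 and Npm1 at -0.09. Vim, an intermediate filament protein of mesenchymal cells named after its values were seen, had 865, 578, 933 and 779 normalized counts in Brap LKO and 390, 570, 543 and 469 in Brap F/F livers. Its groups did not overlap (log2 fold change 0.67 ± 0.17 (SE), limma adjusted p = 0.104), and it was called higher by DESeq2 (Benjamini-Hochberg adjusted p = 0.00909) and by limma with the same total per liver (0.0288).

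Lists of genes that make the ribosome had medians near 0 with the authors' size factors, where single genes ranged more widely, and medians above 0 with the same total per liver. The 15 tested genes of RNA polymerase I and its factors had a median of 0.03 (0.19 with the same total), with Ubtf at 0.07 and Polr1a at 0.14, and 45 genes of rRNA processing and assembly had a median of 0.00 (0.16), with Ncl at -0.09 and Rrp1 at -0.12. The lowest of these was Nop16 at -0.28. The 13 small nucleolar RNA host genes had a median of 0.07 (0.23), with Gas5 at 0.09 and Snhg17 at 0.20. The lowest was Snhg3 at -0.86, whose groups did not overlap (limma adjusted p = 0.212) but overlapped with the same total per liver. The 22 MYC and mTOR regulators had a median of -0.09 (0.07), with Eif4ebp2 at -0.04, Deptor at 0.10 and Myc the lowest at -0.56 with an overlap of the groups. Nop16, Snhg3 and Myc were named after their values were seen. Of these Eif4ebp1, an mTOR target that restrains cap-dependent translation, had the lowest adjusted p (0.0662, limma), with 808, 847, 846 and 751 normalized counts in Brap LKO and 998, 1048, 971 and 1053 in Brap F/F livers. Its groups did not overlap with either scaling, and the log2 fold change was -0.32 with the authors' size factors and -0.17 with the same total per liver (limma adjusted p = 0.184). DESeq2 called it lower (Benjamini-Hochberg adjusted p = 0.00311), so the call depended on the tool, and it was named after its values were seen.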

How the data were processed

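Livers of 4 Brap LKO mice were compared with those of 4 Brap F/F mice; 0 columns of per-liver values were left out. The authors aligned reads to mm10 with STAR 2.6.0c. The deposited signal is a read count per gene that the authors scaled with DESeq2 size factors. Strand use, the release of the annotation and the tool for counting are not given in the sources used here. Whole reads were recovered for 100% of 195608 values (tolerance 0.001). The deposited comparison of the groups (mean, fold change, p-values) was not used.

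The main test was limma 3.58.1 in R 4.3.3 (eBayes with trend) on log2(normalized count + 1) for genes with a mean of at least 5, adjusted over all tested genes; this understates the change of low genes. edgeR 4.0.16 and DESeq2 1.42.0 on recovered reads were alternatives. Single genes also had two-sided exact permutation tests. The limma code was tested on simulated data. Python 3.11.15 with pandas 2.3.3 made the sequence counts.

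The named genes were Rplp0, any member past the threshold, the 5 highest and 5 lowest per kb, paralogs with their parents, the 5 with the largest absolute fold change at a mean of at least 20, Rpl5, Rpl11, Rps6, Rps3, Rps19, Rpsa, Rplp1 and Rplp2, and of each related list the genes past the threshold and the 2 most abundant. Gapdh, Actb, Rpl13a, Rps18 and Fau fall outside this rule and are to be read as named with their values known. The members and lists were chosen with earlier results of these data known.

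Lengths are those of the principal transcript with the best support level. After the levels per kb were seen, a different choice of transcript, taking support levels 1 and 2 as equal and then the shortest, was tried. It changed the transcript of 10 members and would have put Rpl41 in place of Rps15 among the 5 highest, so the first choice was kept. With it 13, 41 and 26 genes lay in the 3 bands of level, and Spearman's rho was 0.72. Coding length, tried later, gave 6, 40 and 34 genes and 0.77. Windows of other genes were sampled every 25 bases. Whole transcripts were used for windows at first by mistake and were replaced with coding sequence. Some results for single genes are not reported, and the figures of single genes leave them out.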

Additional observations from a re-analysis of the deposited data

Results flagged for a closer look

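In 3 of 66 groups of 4 livers, over the named ribosomal protein genes and their sums, 1 liver stood far from the others relative to the range of its group. Chance gives about 1 in 20 such groups, or 3.3 of 66. Rpl3 had 351 normalized counts in the third Brap LKO liver, where the next was 317. Rpl7 had 1564 in the second Brap F/F liver, where the next was 1414. The share of all normalized counts on the 81 genes was 0.274% in the third Brap LKO liver, where the next was 0.278%.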

How the results depend on the processing

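Over 25 settings, the original included, 0 ribosomal protein genes were called in either direction. The median log2 fold change was -0.0586, and it changed sign to 0.0984 with the same total per liver, 0.0986 with that total taken outside the 81 genes and 0.0336 with the total outside the 50 most abundant genes, a setting chosen after seeing the data. The ratio of summed levels (Brap LKO over Brap F/F) was 0.953, and with these scalings 1.063, 1.064 and 1.016. The median of all genes moved with them, to 0.15, 0.15 and 0.08. The median of the ribosomal protein genes stayed below 0 with edgeR TMM factors (-0.0432), quantile normalization (-0.0594), edgeR (-0.0399) and DESeq2 (-0.0536). Genes without overlap between groups were 5 lower and 0 higher, and with the same total per liver, counted after seeing the data, 0 lower and 12 higher. Of 30 named members, 18 changed sign with the same total per liver. Leaving out 1 liver gave medians from -0.0747 to -0.0335, ratios from 0.930 to 0.970 and ranges per kb from 358.3-fold to 386.0-fold. The median was closest to 0 without the second Brap F/F liver (-0.0335) or the first Brap LKO liver (-0.0345). With coding lengths, added after seeing the data, the range was 1056-fold. Over the 12 genes with at least 50% unique windows, also chosen after seeing the data, the median was -0.06. Of related genes, 2 (Vim and Nop56) were called higher with either same total, and DESeq2 called 1 higher (Vim) and 1 lower (Eif4ebp1). The cause of these shifts was not tested, other than that the same total per liver moves all genes together. Same-numbered livers share only a number: their correlations of deviations were -0.13, 0.00, 0.20 and 0.29. With the replicate block, 0 members were called and the median was -0.0586; over all genes 80 were called higher and 15 lower. Over all genes, limma called 102 higher and 16 lower, edgeR 108 and 14, DESeq2 448 and 159, and limma with the same total per liver 459 and 20. With the series of animal numbers (lower or higher) as a covariate the median was -0.0322 (all genes -0.01), 0 members and 12.7% of all genes had an unadjusted p under 0.05, and 132 of all genes were called higher and 13 lower. Of 718 values of named members under other settings, 628 kept their sign and 46 moved by more than 1 SD between livers. For genes under 100 normalized counts, few reads limit the precision.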
